A study of Mus musculus with 16 samples.

Results

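Of the 1426 Gli2 peaks called in Sufu;Spop double knockout (DKO) medulloblastomas on chromosomes 1 to 19, X and Y, 538 were absent from the SmoM2 Gli2 list but lay in chromatin acetylated in tumours of both genotypes. These sites were selected on the lists themselves. A member shared no base with any of the 148 SmoM2 Gli2 peaks, and shared at least 1 base with an H3K27ac region of the SmoM2 list and at least 1 base with an H3K27ac region of the DKO list. They made up 40.1% of the 1341 DKO peaks without a SmoM2 counterpart, called DKO-only here (Wilson 95% interval 37.5% to 42.8%). Of the other DKO-only peaks, 550 had H3K27ac in neither genotype, 157 in DKO tumours only and 96 in SmoM2 tumours only.

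The tumours were mouse medulloblastomas at postnatal day 13, profiled by chromatin immunoprecipitation and sequencing with Gli2, H3K27ac and H3K36me3 antibodies. The first genotype overexpressed SmoM2, and the second lacked both Sufu and Spop. The sources used here do not name the alleles, promoter or Cre driver of either genotype. Of 16 libraries, 12 came from immunoprecipitation and 4 from input DNA, and each genotype and antibody had 2 libraries that shared 1 deposited peak list. The 6 lists gave no read numbers, so depth is unknown and no difference between genotypes has a replicate check. Whether the libraries of a group came from separate animals is not stated. An Olig2 antibody on the beads appears in the protocol text but in no sample's antibody label, and the Gli2 lists are named here after the latter. All intervals below cover the number or spread of sites only, not the variation between tumours.

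Gli2 is the main transcriptional activator of the Hedgehog pathway, which drives proliferation of cerebellar granule neuron progenitors and, when constitutively active, medulloblastoma. SmoM2 is an active form of Smoothened, the membrane protein that turns the pathway on. Sufu binds and restrains Gli proteins further down the pathway, and Spop is the substrate adaptor through which a Cul3 ubiquitin ligase recognises them. H3K27ac marks active promoters and enhancers, whereas H3K36me3 is laid down over the bodies of transcribed genes. A member is therefore a position with a Gli2 call in one tumour genotype and an active mark called in both.

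The thresholds of the selection were close for some sites. Among members, 38 shared fewer than 50 bases with one of the H3K27ac lists. The least overlap was 2 bases with a SmoM2 region, at chr3:104930890-104931127, chr4:147496663-147496873 and chrX:133572820-133572948 (build mm9 throughout), followed by 3 bases at chr7:73389645-73389783. At chr6:127313451-127313787 the least overlap was with the DKO list, 4 of 337 bases. Just outside, 107 other DKO-only peaks lay within 100 bp of membership and 307 within 1000 bp. The nearest were chr16:37385004-37385124, which abutted its region without sharing a base, chr16:4964408-4964682 at 1 bp, chr9:57940358-57940564 at 2 bp, chr11:97842021-97842339 at 4 bp and chr8:87180000-87180156 at 5 bp. In that order, DKO Gli2 enrichment at these outside sites was 5.65-fold, 9.13-fold, 9.89-fold, 24.8-fold and 11.7-fold. At the members named above it ran from 9.13-fold to 15.5-fold, so enrichment overlapped across the line.

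The other threshold was absence from the SmoM2 Gli2 list, and few members lay near a peak of that list. A SmoM2 Gli2 peak was found within 1 kb of 10 members and within 10 kb of 35, and the median distance to the nearest was 3017790 bp. That list held only 148 peaks, and the median over all DKO Gli2 peaks was 3858000 bp. Distance does not show how near the SmoM2 signal at a member came to being called. The closest was 155 bp away, at chrY:2780208-2780463. Next came chr13:63668050-63668168 at 228 bp, chr16:59639310-59639424 at 249 bp, chr12:12911356-12911658 at 279 bp and chr2:179937651-179937851 at 293 bp. On the other side of the line, the DKO peaks with the smallest overlap with a SmoM2 peak still shared 112 or 113 bases with it.

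Members were moderate Gli2 peaks that stood slightly above the unacetylated DKO-only peaks and far below the sites called in both Gli2 lists. Their median fold enrichment, the authors' value for signal over local background at the summit, was 10.0 (95% interval 9.57 to 10.5, n = 538), with a range from 1.73 to 43.1. The 550 DKO-only peaks without H3K27ac in either genotype had a median of 8.59 (8.26 to 9.04). The 51 DKO peaks that overlapped a SmoM2 Gli2 peak and were acetylated in both genotypes had a median of 26.5 (20.0 to 30.0). Neither interval overlapped that of the members. Enrichment within the DKO list bears on whether a site is also called in the other list, so the contrast with the 51 sites is a description.

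The same order was seen in the number of fragments stacked at the summit, which was computed back from the authors' fold and −log10 p. Members had a median of 24 fragments (23 to 26; range 9 to 98), against 21 (20 to 22) at the unacetylated DKO-only peaks and 64 (48 to 74) at the acetylated sites of both lists. At least 40 fragments were found at 15.1% of members (81 of 538), 8.00% of unacetylated DKO-only peaks and 86.3% of the 51 sites of both lists. The difference between members and unacetylated peaks was 7.06 percentage points (Newcombe 95% interval 3.27 to 10.9). Of the DKO-only peaks acetylated in SmoM2 tumours only, 28.1% (27 of 96) had at least 40 fragments, 13.1 points more than members (the share of members minus theirs had an interval from -23.2 to -4.41). Their median was 26.5 fragments (23 to 32) and their median fold 9.26 (8.26 to 10.4), over a median background of 1.45 fragments. Peaks acetylated in DKO tumours only had 12.1% with at least 40 fragments (interval of the difference -3.68 to 8.29 points) and a median fold of 9.13 (8.15 to 10.6). The fold intervals of both classes overlapped that of the members. Members were also wider peaks, with a median of 174 bp (167 to 180) against 154 bp (149 to 157) without acetylation and 294 bp (267 to 316) at the sites of both lists.

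**Figure D1:**
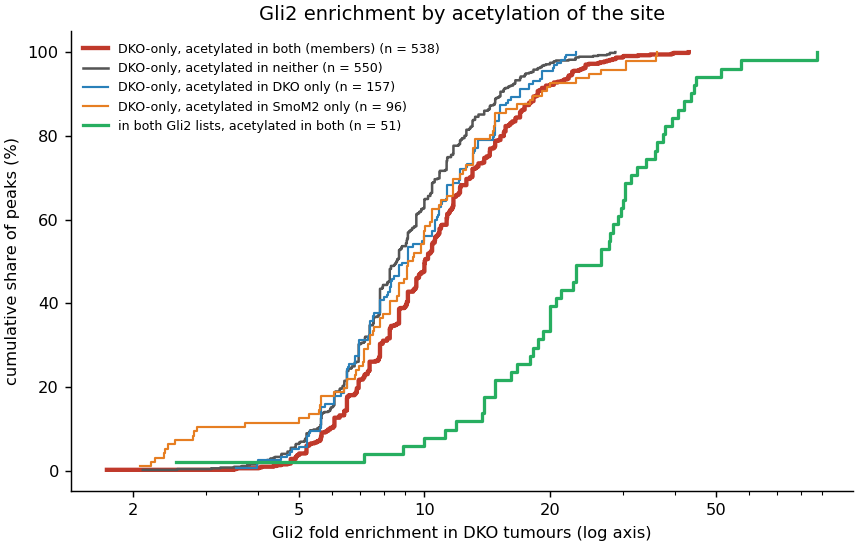
Cumulative share of DKO Gli2 peaks (vertical axis, %) at or below each fold enrichment (horizontal log axis), for the 538 members, the other 3 classes of DKO-only peaks and the 51 acetylated sites of both Gli2 lists. The curve of the members runs to the right of that of the 550 unacetylated peaks (medians 10.0 and 8.59), and the sites of both lists stand apart at a median of 26.5.

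Local background, meaning the number of fragments the peak caller anticipated at the site, did not separate members from unacetylated peaks. Its median was 1.3 fragments in both classes. The lowest value in the list, which serves as a floor, was assigned to 300 members (55.8%, 51.5% to 59.9%) and to 289 of the 550 unacetylated peaks (52.5%, 48.4% to 56.7%). Members at the floor had a median fold of 10.4 (10.0 to 11.7) and the 238 members above it 9.71 (9.04 to 10.2). A single member departed from this pattern. At chrY:2780208-2780463 the background was 52.6 fragments and 92 fragments gave only 1.73-fold enrichment, inside a DKO H3K27ac region of 300 bp. The next highest background was 5.48 fragments, at chr4:42079115-42079275.

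The 10 members with the highest −log10 q spread over 7 chromosomes, and several fell in the same acetylated regions as other members. The strongest was chr11:119383795-119384470, with 43.1-fold enrichment, 98 fragments and −log10 q of 139. It was not wholly inside the acetylated regions: 628 of its 676 bases lay in a DKO H3K27ac region of 1331 bp and 519 in a SmoM2 region of 1492 bp, and its summit lay just outside the latter. A SmoM2 Gli2 peak was called 1513 bp from it.

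The second was chr11:120121212-120121523, with 39.6-fold enrichment and 90 fragments, within a DKO H3K27ac region of 22518 bp and a SmoM2 region of 8115 bp. The third was chr18:36034041-36034296, with 39.1-fold enrichment and 89 fragments in a DKO region of 3977 bp and a SmoM2 region of 3209 bp. The fourth, chr8:122841043-122841541, had 32.5-fold enrichment in a DKO region of 32543 bp. All 3 lay wholly inside H3K27ac of both genotypes, and each shared its DKO region with further members.

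The next 3 were chr8:111034599-111034823 at 34.8-fold, chr9:44527834-44528089 at 29.9-fold and chr4:128802046-128802342 at 28.7-fold. The remaining 3 were chr19:4492834-4493075 at 30.0-fold, chr8:91102771-91102991 at 28.8-fold and chr15:84560177-84560498 at 21.7-fold. The last had a background of 2.74 fragments under its 80 fragments, above the floor. The DKO H3K27ac regions at these 6 sites measured from 2281 to 8489 bp and the SmoM2 regions from 1821 to 5482 bp. At chr9:44527834-44528089 and chr8:91102771-91102991 the SmoM2 region was the wider of the pair, 5482 against 3960 bp and 2679 against 2653 bp.

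Within the acetylated regions, Gli2 summits sat towards the middle rather than at the rim. The summit lay inside H3K27ac of both genotypes at 483 members (89.8%, 86.9% to 92.1%), in the DKO region only at 27, in the SmoM2 region only at 16 and in neither at 12. The whole Gli2 peak lay inside both regions at 463 members (86.1%). Where the summit was inside, its median distance to the nearest edge was 1103 bp (980 to 1193, n = 510) in DKO and 919 bp (846 to 1012, n = 499) in SmoM2 regions. It lay closer to the centre than to the edge in 77.8% of DKO regions and 75.4% of SmoM2 regions.

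The acetylated regions that held members were among the widest of either genotype. The median width at members was 3053.5 bp (2774 to 3319) in the DKO list and 2562 bp (2370 to 2826) in the SmoM2 list. These values stand at the 96.3 and 94.6 percentile of width within their lists. The regions were less extreme in enrichment, with a median percentile of 88.5 in the DKO and 83.7 in the SmoM2 list. Ranks within lists of different length do not measure a change between genotypes.

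By region, 469 of the 15562 DKO H3K27ac regions also called in SmoM2 tumours held a member, which is 3.01%. Their median DKO width was 2755 bp (2570 to 3042), against 879 bp (865 to 893) for the 14949 such regions with no Gli2 peak of either list. The share with a member rose with SmoM2 width, from 0.188% of regions under 250 bp (4 of 2133) through 2.85% between 1000 and 2000 bp to 30.4% at 8000 bp and over (42 of 138; 23.4% to 38.6%). It also rose with the fold enrichment of the SmoM2 region, from 0.432% below percentile 10 of the list (3 of 695) to 6.86% from percentile 90 upwards (154 of 2246; 5.88% to 7.98%). A wide region covers more sequence and so has more room for a peak, and this was not separated from enrichment. By DKO width the share rose in the same way, from 0.655% between 500 and 1000 bp through 2.49% between 1000 and 2000 bp to 34.9% at 8000 bp and over (27.2% to 43.6%).

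**Figure D2:**
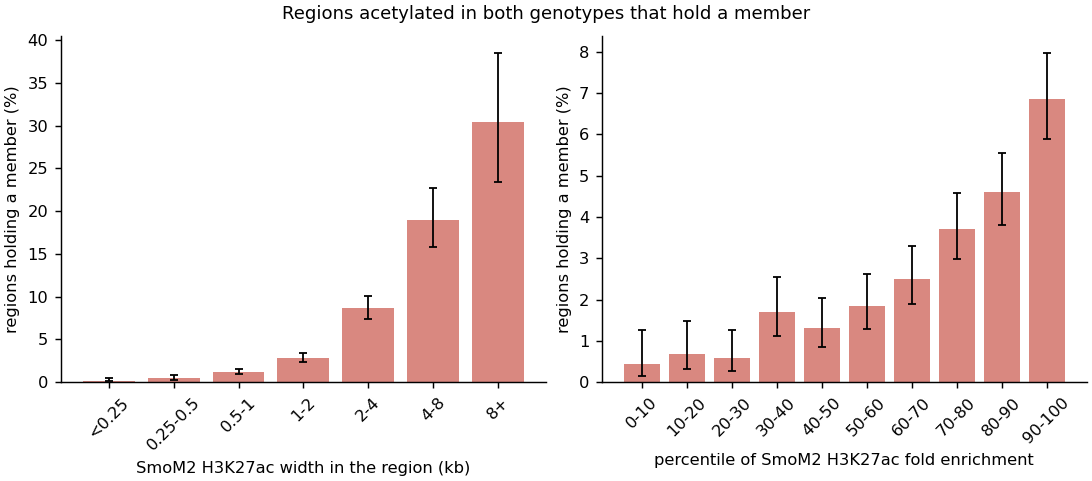
Share of H3K27ac regions called in both genotypes that hold at least 1 member (vertical axes, %), by summed SmoM2 width in kb (left) and by percentile of SmoM2 H3K27ac fold enrichment (right), with Wilson 95% intervals as bars. The share rises from 0.188% to 30.4% with width and from 0.432% to 6.86% with enrichment.

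The strength of Gli2 was hardly related to the extent of acetylation among the members. Across the 538 members, which share 1 Gli2 list and often a region, Spearman's rho between −log10 q of Gli2 and H3K27ac width was 0.06 in DKO and 0.10 in SmoM2 regions (Pearson's r on log10 values 0.08 and 0.09). The 135 members with the highest −log10 q (28.7 to 139) had a median DKO region of 3396 bp (2731 to 3962), and the 135 with the lowest (1.89 to 9.88) had 2939 bp (2570 to 3757). These intervals overlapped although median Gli2 fold differed between the same sets, 17.8 (17.0 to 18.7) against 6.26 (6.05 to 6.52). By contrast, the H3K27ac width in one genotype followed that in the other, with a rho of 0.78 across members.

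Acetylation around members extended further in DKO than in SmoM2 tumours. The H3K27ac region was wider in the DKO list at 367 members (68.2%, 64.2% to 72.0%) and wider in the SmoM2 list at 170 (31.6%), with 1 tie in width. The median ratio of DKO to SmoM2 width was 1.15 (1.11 to 1.21), and single ratios ran from 0.141 to 26.4. It was at least 2 at 89 members (16.5%) and at most 0.5 at 30 (5.58%). Each ratio set the first DKO region that the Gli2 peak overlapped against the first SmoM2 region only. A region was counted again for each member in it. The largest ratio, at chr13:55698089-55698270, set 4703 bp in DKO against a SmoM2 region of 178 bp. Within 5 kb of the summit on either side, members had a median of 3955.5 acetylated bases (3673 to 4308) in DKO and 3316.5 (3026 to 3684) in SmoM2 tumours, and 385 members (71.6%, 67.6% to 75.2%) had more in DKO.

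This has to be read against the lists as a whole, because the DKO list covered 25.2 Mb and the SmoM2 list 18.9 Mb. Of all regions called in both genotypes, 61.9% were wider in DKO than the SmoM2 regions overlapping them, whose widths were added where there were several, and 19.3% were at least 2 times as wide. Of the 469 regions with a member, counted in the same way, 310 were wider in DKO (66.1%, 61.7% to 70.2%) and 40 were at least 2 times as wide (8.53%, 6.33% to 11.4%). Their median ratio was 1.13 (1.08 to 1.17), and that of regions with no Gli2 peak was 1.15 (1.13 to 1.16). The typical excess of DKO width at members was thus close to that of acetylated regions in general, while regions at least 2 times as wide were less frequent. Regions at most 0.5 times as wide were less frequent too, at 6.40% (4.52% to 8.98%) against 14.1% of all regions called in both genotypes. The ratios at regions with a member were therefore less spread in both directions. These shares were not matched for width. Within 5 kb of the region's centre, regions with a member had medians of 3667 DKO and 3010 SmoM2 acetylated bases. Regions with no Gli2 peak had 1213 and 1001, so the DKO median was the higher there too. The share of those regions with more acetylated bases in DKO was not computed. Over all 1426 DKO Gli2 peaks, 786 (55.1%) had more acetylated bases within 5 kb in DKO and 364 (25.5%) more in SmoM2, the rest being equal. Among members the shares were 71.6% and 27.1%. More peaks with the higher value in DKO were thus found over the whole Gli2 list as well.

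**Figure D3:**
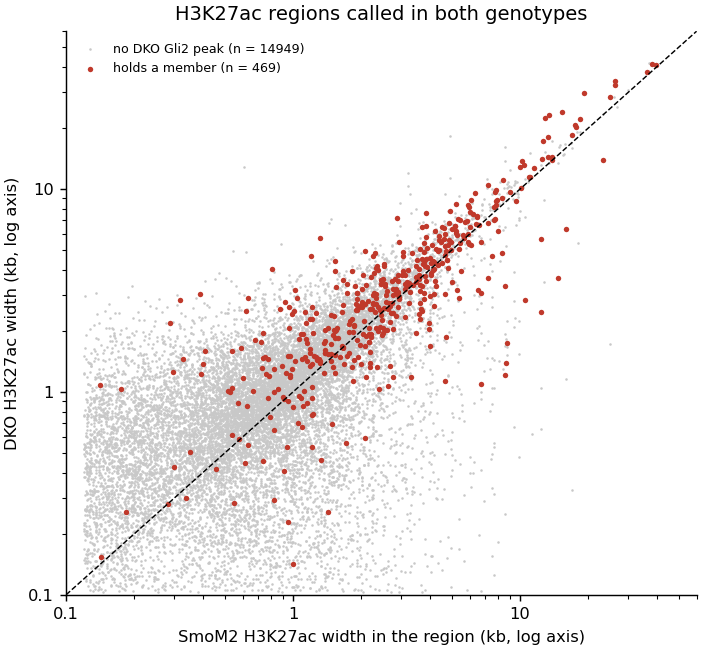
DKO H3K27ac width (vertical log axis, kb) against the summed width of the overlapping SmoM2 regions (horizontal log axis, kb) for regions called in both genotypes. Shown are 469 with a member in red and 14949 without a Gli2 peak of either list in grey, with the line of equal width dashed. Regions with a member gather at the wide end (median DKO width 2755 against 879 bp), and 66.1% of them lie above the line.

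Among regions of similar width, the comparison between those with and without a member turned on which width was held fixed. When classes were set by SmoM2 width, regions with a member were more often wider in DKO, for example at 60.3% against 41.1% between 2 and 4 kb (difference 19.2 points, 10.9 to 27). When classes were set by DKO width, the order was the opposite, at 66.1% against 79.6% for the same limits (difference -13.5 points, -21.2 to -6.49). With classes set by the geometric mean, which weighs both widths alike, the shares were 62.4% and 62.1% (difference 0.359 points, -7.83 to 8.01). The differences by geometric mean also spanned 0 in the classes from 0.5 to 1, 1 to 2 and 4 to 8 kb. Regions were counted from the DKO list. Where several DKO regions overlapped the same SmoM2 region, each was set against its whole width, and the part of this in the shares was not tested.

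The widest class was the exception. Of 40 regions with a member and a geometric mean of 8 kb or more, 90% were wider in DKO (76.9% to 96.0%), against 72.5% of 69 regions without a Gli2 peak (61.0% to 81.6%). This difference was 17.5 points (1.6 to 30.5). It was 23.0 points (5.01 to 38.1) with classes by SmoM2 width and 12.1 points (-0.388 to 22.4) by DKO width. The direction was the same under all 3 ways of setting the classes, but the last interval spanned 0. The class has no upper limit of width, and the intervals are not adjusted for the 5 classes. The summed SmoM2 width also leaves out gaps between SmoM2 regions. Several SmoM2 regions lay under 19.4% of all regions with a member and 5.24% of those with no Gli2 peak. The part of these gaps in the difference was not tested.

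**Figure D4:**
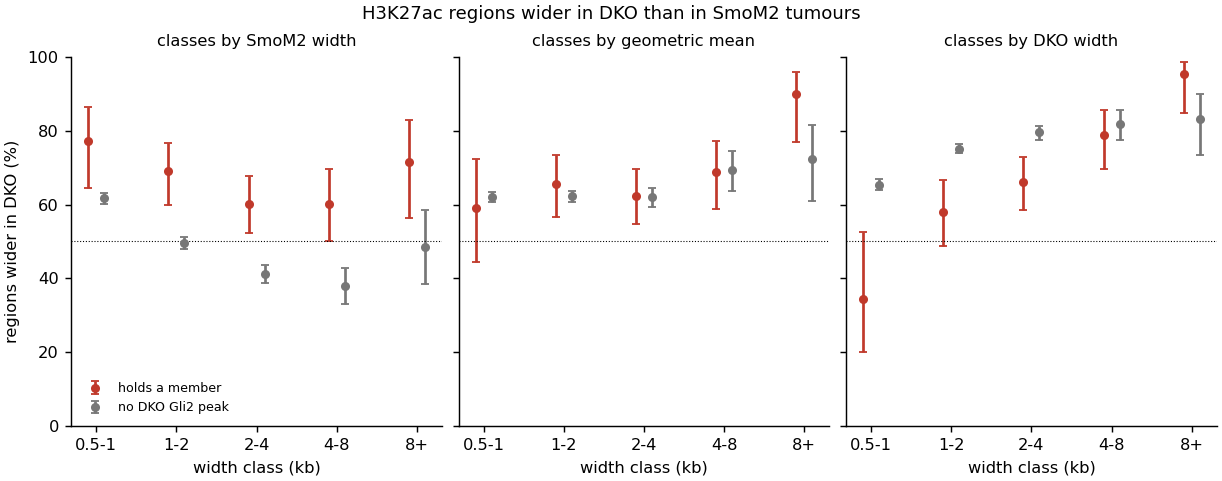
Share of H3K27ac regions that are wider in DKO than in SmoM2 tumours (vertical axis, %) in 5 width classes (kb). Classes are set by SmoM2 width, by the geometric mean of both widths and by DKO width. Regions with a member are red and those without a Gli2 peak of either list grey, with Wilson 95% intervals. Red lies above grey in all classes on the left and below it in the narrower 4 on the right, and only the class of 8 kb and over differs in the middle panel (90% against 72.5%).

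Members differed in this respect from the acetylated sites called in both Gli2 lists. At those 51 sites the median ratio of DKO to SmoM2 width was 1.01 (0.92 to 1.09), below the interval of the members. Acetylated bases within 5 kb had medians of 4536 in DKO and 4551 in SmoM2 tumours there, and more were found in DKO at 28 of 51 sites (54.9%), which is 16.7 points fewer than at members (Newcombe interval of the difference 3.23 to 30.7). Counting each DKO region a single time gave a ratio of 1.14 (1.09 to 1.17) for 453 regions with members and no site of both lists, and 0.97 (0.85 to 1.07) for 42 regions with a site of both lists and no member. Of the former 66.0% and of the latter 47.6% were wider in DKO, a difference of 18.4 points (3.06 to 33.3). The 16 regions that held both kinds of site had a ratio of 1.06 (0.91 to 1.23), and 11 of them were wider in DKO (68.8%, 44.4% to 85.8%). Among regions without a Gli2 peak and with a geometric mean width of 2 to 4 kb, 62.1% were wider in DKO, inside the interval of the 42 regions (33.4% to 62.3%). A departure of the sites of both lists from acetylated regions of like width was therefore not shown.

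The extent of acetylation with distance showed the same difference. At 1 kb from the summit, 67.3% of positions around members lay in DKO H3K27ac and 59.8% in SmoM2 H3K27ac. The shares were 41.0% and 32.3% at 2 kb, 22.6% and 16.9% at 5 kb and 17.3% and 12.0% at 10 kb. Around the sites of both lists they were 74.5% and 71.6% at 1 kb and 51.0% and 49.0% at 2 kb. For comparison, around the centres of regions with no Gli2 peak only 20.3% of positions at 1 kb lay in DKO H3K27ac and 18.2% in SmoM2 H3K27ac.

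Members with the most unequal acetylation, among those with regions of at least 500 bp in both genotypes, were of distinct kinds. Of the 5 with the largest ratio, 4 lay in the same DKO region, chr8:122811999-122844541, which spanned 6 separate SmoM2 regions. Their ratios, from 9.32 to 23.3, set that whole DKO region against the single SmoM2 region under the member. Within 5 kb of the summits the difference was smaller, for example 10000 DKO and 7608 SmoM2 bases at chr8:122837733-122837919. At the fifth, chr4:8793045-8793309, the widths were 23172 and 3022 bp, and 9171 DKO and 4086 SmoM2 bases were acetylated within 5 kb. Its Gli2 enrichment was 27.4-fold.

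At the 5 members with the smallest ratio, the SmoM2 region was the wide one. At chr9:107528912-107529121 it measured 8613 bp against 1216 bp in DKO, and Gli2 was enriched 17.0-fold. The others were chr5:121021143-121021358 (8714 against 1382 bp), chr15:78234489-78234657 (6747 against 1095 bp), chr2:104233038-104233198 (8729 against 1748 bp) and chr16:29720381-29720576 (12363 against 2488 bp). Gli2 enrichment at these 4 ran from 9.4-fold to 17.4-fold. Within 5 kb of the summits the difference was again smaller, with 4359 DKO and 5239 SmoM2 acetylated bases at chr9:107528912-107529121 and 3012 against 6747 at chr15:78234489-78234657. At the other 3 the DKO bases ran from 5058 to 5639 and the SmoM2 bases from 6950 to 8490, so all 5 had fewer in DKO.

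Members clustered with other Gli2 peaks. Another DKO Gli2 peak lay within 10 kb of 179 members (33.3%, 29.4% to 37.4%), against 20.3% of all DKO Gli2 peaks. The share was 9.09% at DKO-only peaks without acetylation, 24.2 points lower (19.5 to 28.8), and 39.2% at the acetylated sites of both lists, with an interval of the difference from -20.2 to 6.91 points. The median distance to the next DKO Gli2 peak was 54732.5 bp for members and 277851 bp for the unacetylated peaks. Among the 135 members with the highest −log10 q the share was 42.2% (34.2% to 50.7%) and among the 135 with the lowest 31.9% (24.6% to 40.1%), with overlapping intervals.

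Most acetylated regions nevertheless held a single member. Of the 469 DKO regions, 419 had 1 member, 37 had 2, 10 had 3 and 3 had 5. In 16 regions, 29 members shared the region with a Gli2 site of both lists, so DKO-only calls and calls of both lists lay in the same acetylated stretch.

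Each of the 3 regions with 5 members also held 1 SmoM2 Gli2 peak. The region chr8:122811999-122844541, 32543 bp wide, held members from 7.12-fold to 32.5-fold, and the 6 overlapping SmoM2 regions added up to 26182 bp. The region chr11:120112000-120134517, 22518 bp wide, held members from 7.16-fold to 39.6-fold, including the second strongest of all, and overlapped 5 SmoM2 regions of 12890 bp in all. The region chr13:63657124-63671030, 13907 bp wide, held members from 4.01-fold to 24.4-fold. It ran counter to the first pair, since 2 SmoM2 regions of 23099 bp in all overlapped it, a ratio of 0.602.

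None of the 10 regions with 3 members held a SmoM2 Gli2 peak. The widest was chr5:37258638-37292571, with 33934 bp in DKO and 26331 bp over 9 SmoM2 regions, and its members ran from 7.83-fold to 11.7-fold. The region chr5:124797492-124805868 had the highest H3K27ac enrichment of the DKO list, 21.3-fold, with members from 9.57-fold to 14.8-fold. Compact examples were chr18:36031935-36035911, 3977 bp wide with members from 4.92-fold to 39.1-fold, and chr11:95251773-95255828, 4056 bp wide with members from 8.26-fold to 27.8-fold. The shortest was chr11:102639294-102640727 at 1434 bp, whose members ran from 5.65-fold to 8.70-fold. The other 5 were chr7:30175014-30186516, chr7:152352810-152360978, chr6:54667260-54672157, chr9:44526483-44530442 and chr10:126776155-126779473. Over all 10 regions the ratio of DKO to SmoM2 width ran from 0.722 to 1.6 and was above 1 in 8.

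H3K36me3, the mark of transcribed gene bodies, was near members but seldom on them. An H3K36me3 region of the DKO list overlapped 16 members (2.97%, 1.84% to 4.78%) and one of the SmoM2 list 14 (2.60%, 1.56% to 4.32%). Over all DKO Gli2 peaks the shares were 2.31% and 2.66%, so members were near the background of the list. Within 1 kb the mark was found at 103 members (19.1%) in DKO and 94 (17.5%) in SmoM2 tumours, and within 10 kb at 316 (58.7%) and 306 (56.9%). At DKO-only peaks without acetylation the shares within 10 kb were 24.4% and 24.2%, which was 34.4 (28.7 to 39.7) and 32.7 points (27.1 to 38.0) lower.

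The median distance from a member to the nearest DKO H3K36me3 region was 5267 bp (3941 to 7675), against 41588.5 bp (35863 to 48393) for unacetylated peaks. It was 7496 bp (3459 to 16993) at the acetylated sites of both lists and 4755 bp (4582 to 4950) for acetylated regions with no Gli2 peak. By region, DKO H3K36me3 overlapped 25.6% of the 469 regions with a member (21.8% to 29.7%) and 8.75% of regions with no Gli2 peak (8.31% to 9.21%). At the region's centre the shares were 6.82% (4.87% to 9.47%) and 3.86% (3.56% to 4.18%). The former regions were also wider, 2755 against 879 bp, and the part of width in this difference was not tested. With distance from the summit, the share of positions around members inside DKO H3K36me3 was 2.23% at the summit, 4.83% at 500 bp, 10.8% at 1 kb, 16.6% at 2 kb and 20.8% at 5 kb. In SmoM2 tumours it was 2.42%, 3.72%, 8.27%, 12.5% and 16.8%. Around the centres of acetylated regions with no Gli2 peak, the DKO shares were 3.86% at the centre, 6.25% at 1 kb and 20.5% at 5 kb, a slower rise to the same level.

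**Figure D5:**
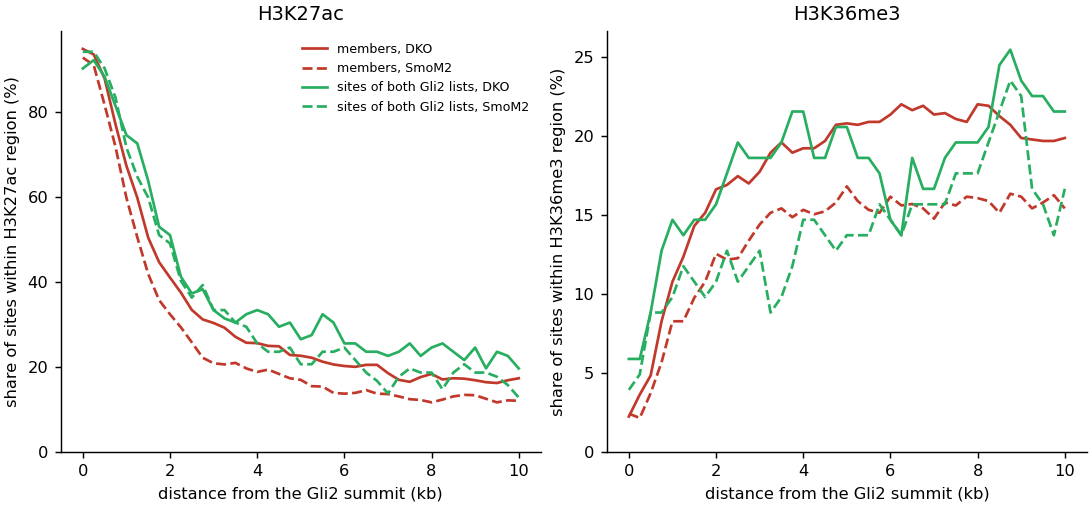
Share of positions inside an H3K27ac region (left) or H3K36me3 region (right) (vertical axes, %) by distance from the Gli2 summit (kb, both sides combined), for 538 members (red) and 51 acetylated sites of both Gli2 lists (green) in DKO (solid) and SmoM2 tumours (dashed). Around members the DKO line of H3K27ac runs above the SmoM2 line (67.3% against 59.8% at 1 kb), and H3K36me3 in DKO rises from 2.23% at the summit to 20.8% at 5 kb.

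An H3K36me3 region of each genotype overlapped 9 members. The strongest were chr4:8793045-8793309 at 27.4-fold, with 3 bases in the DKO and all 265 in the SmoM2 mark, and chr13:63664326-63664676 at 24.4-fold, with 38 and 19 of 351 bases. At the other 7 the whole Gli2 peak was covered in both genotypes. They were chr7:30185508-30185730 at 14.7-fold, chr5:124798107-124798240 at 9.57-fold, chr5:115188638-115188779 at 9.13-fold, chr4:134143905-134144054 at 6.96-fold, chr13:55698089-55698270 at 5.55-fold, chr11:68805829-68805946 at 5.22-fold and chr8:125162577-125162703 at 4.35-fold. All but the first of these 7 lay below the median enrichment of the members.

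Members were spread unevenly over the chromosomes. Chromosome 8 held the most, 57, followed by 11 with 52, 5 with 51 and 4 with 47, which together made 207 of the 538. On chromosome 8, 55.3% of DKO-only peaks were members (45.7% to 64.6%), against 40.1% over all chromosomes. This share was similar on chromosomes 13 (52.6%, 39.9% to 65.0%), 18 (51.5%, 35.2% to 67.5%) and 11 (51.5%, 41.9% to 61.0%). Of the regions of chromosome 8 acetylated in both genotypes, 5.09% held a member (3.81% to 6.76%), against 3.01% over the genome. The share of regions was 4.3% on chromosome 5 (3.23% to 5.7%) and 3.95% on chromosome 4 (2.94% to 5.28%). On chromosome 11, which had the most such regions, 1293, it was 3.09% (2.28% to 4.19%). The intervals of chromosomes 4 and 11 held the share over the genome, so an excess in the share of regions was not shown there. The lowest shares of regions on autosomes were 1.65% on chromosome 14 (0.871% to 3.11%), 1.84% on chromosome 17 (1.08% to 3.12%) and 2.00% on chromosome 9 (1.27% to 3.15%). These intervals also held the share over the genome, so a deficit there was not shown. The X chromosome had 1 member among 12 DKO-only peaks and the Y chromosome 1 among 14. Of the 262 regions of the X chromosome, 0.382% held a member (0.0674% to 2.13%), an interval below the share over the genome. The intervals are not adjusted for the 21 chromosomes compared, and the lists do not give the numbers of chromosome copies in these tumours.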

How the data were processed

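Peak lists of 6 genotype and antibody groups were used, each standing for 2 libraries of medulloblastoma at postnatal day 13. The submitters' processing notes list build mm9 and the tools MACS2, bedtools, BWA and Trimmomatic 0.36. The sources used here do not give their roles and settings or say whether reads or peaks were merged. The authors deposited start, end and, for Gli2, summit positions. Fold enrichment was deposited as a ratio to local background. The authors wrote p-values and q-values as −log10. The score column in the deposited lists was not used.

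Regions on chromosomes 1 to 19, X and Y were compared, and sharing at least 1 base counted as overlap. A region at a member is the first one it overlaps. Shares carry Wilson and differences Newcombe 95% intervals. Medians carry exact binomial intervals from order statistics. No p-value was computed, since each group is a single list. Fragments and local background were recovered with fold equal to (fragments + 1) / (background + 1) and −log10 p a Poisson upper tail. This solved all 1426 DKO peaks within 0.01 of −log10 p, and the code was tested on simulated data. The tools were scipy 1.17.1, pandas 2.3.3, numpy 2.4.6 and matplotlib 3.10.9 under Python 3.11.15.

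Positions stand in for genes by this rule: the 10 members with the highest −log10 q, the 5 largest and 5 smallest width ratios among members with regions of at least 500 bp in both genotypes, regions with at least 3 members, members in H3K36me3 of both genotypes, and 5 sites on either side of the H3K27ac threshold. The members and lists were chosen with earlier results of these data known. The classes by DKO width and geometric mean, the member of highest background and the chromosomes were chosen after seeing the data. Genes, sequences, motifs and cell type markers were not analysed here, since no mm9 genome or annotation was used and coordinates were not converted from GRCm38.p6. Alternatives were stricter thresholds, other definitions of overlap, joining of regions and all sequences.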

Additional observations from a re-analysis of the deposited data

How the results depend on the processing

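Of 87 values recomputed under the settings listed at the outset, 72 stayed inside the interval of the reported value or, for the number of members, within 1.5 times of it. These 72 include values that had little room to move. With all sequences every value was unchanged, and the median local background stayed at the floor wherever it was recomputed. With H3K27ac regions of −log10 q of at least 3, members made up 31.8% of DKO-only peaks, the median H3K27ac widths at members were 3538 bp in DKO and 3127 bp in SmoM2, 5.22% of regions held a member and 37.9% of members had another Gli2 peak within 10 kb. Requiring the summit inside both regions gave 36% of DKO-only peaks and 2.71% of regions. Joining H3K27ac regions at most 1 kb apart gave 48.4% of DKO-only peaks, a DKO width of 3545 bp, a width ratio of 1.23, 4.02% of regions and 29.3% with another Gli2 peak. Taking H3K36me3 within 1 kb gave 19.1% in DKO and 17.5% in SmoM2, and another Gli2 peak within 50 kb gave 49.3%, both by their wider definition. The number of members ran from 427 to 649, and the width ratio stayed above 1 under each of these settings.

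The share of regions wider in DKO, with a member minus without a Gli2 peak, changed sign with the width used for classes, an alternative chosen after seeing the data. By geometric mean it was -2.90 points for 0.5 to 1 kb, 3.34 for 1 to 2 kb, 0.359 for 2 to 4 kb and -0.536 for 4 to 8 kb. By SmoM2 width it was 15.7, 19.4, 19.2 and 22.4 points, and by DKO width -30.9, -17.3, -13.5 and -3.19 points.

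No paired analysis was possible because the replicates of a group share a single peak list, which also left no replicate to leave out. Gene starts and motifs were not tried, since no mm9 annotation or genome was used. Read depth is unknown, so a missing SmoM2 Gli2 call sets no upper limit on Gli2 there, and list lengths and region widths can depend on depth, which was not tested.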
